A study of Mus musculus with 21 samples.

Results

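The 9 genes described here build and polarise the contacts between epithelial cells, and they were followed across 20 mouse mammary tumours that carried 1 of 4 transgenes. All features of the deposited value table that the platform annotation gives to 1 of these genes were taken, which came to 20 features of 33653 with a single gene symbol, and 9 genes of 19087. Cdh1 had 10 features, Dsp and Ocln had 2 each, and Epcam, Crb3, Pkp3, Cldn3, Cldn4 and Cldn7 had 1 each. The tumours arose in mice with a transgene under the MMTV promoter, which is active mainly in the mammary epithelium. The transgene was ATX (autotaxin, which is secreted and releases lysophosphatidic acid, LPA), LPA3, LPA2 or LPA1 (receptors for LPA), with 5 mice each. Strain, age and the founder lines were not given in the sources used here. No normal mammary gland was on the arrays. Every tumour RNA (Cy5) was hybridised on an Agilent 2-colour array against RNA of a whole mouse (Cy3), without a dye swap. Every value below is a log2 ratio, tumour over whole mouse, so 1 unit is a doubling, and a value of 0 is the level of the whole-mouse reference for that probe. A ratio holds no absolute level, and a ratio of one gene was not set against that of another.

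Epithelial cells are held together by adherens junctions, built on E-cadherin (Cdh1), by desmosomes, which tie the keratin network to the membrane through plakophilins (Pkp3) and desmoplakin (Dsp), and by tight junctions, sealed by claudins (Cldn3, Cldn4, Cldn7) and occludin (Ocln). Crb3 is a small transmembrane protein of the apical Crumbs complex, which sets the apical side of the cell. Epcam is an epithelial surface protein that associates with claudins. In the mammary gland these genes are expressed mainly by the epithelium, and Zeb and Snail family repressors bind E-box sequences in the promoters of several of them. A bulk ratio cannot tell fewer epithelial cells from less RNA per cell.

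RefSeq promoter windows of GRCm38.p6 (250 bases before to 50 after a start site) were matched by symbol for 7 of the 9 genes, Epcam, Crb3, Cldn3, Cldn4, Cldn7, Dsp and Ocln, with 10 windows in all. Those of Epcam, Crb3, Cldn3 and Cldn4 are shown as examples, for a surface protein, an apical polarity protein and a pair of claudins, of windows that hold the 6-base E-box CACCTG that Zeb and Snail proteins read. The capitals mark this E-box in either orientation.
Epcam, chr17:87635729-87636028, plus strand: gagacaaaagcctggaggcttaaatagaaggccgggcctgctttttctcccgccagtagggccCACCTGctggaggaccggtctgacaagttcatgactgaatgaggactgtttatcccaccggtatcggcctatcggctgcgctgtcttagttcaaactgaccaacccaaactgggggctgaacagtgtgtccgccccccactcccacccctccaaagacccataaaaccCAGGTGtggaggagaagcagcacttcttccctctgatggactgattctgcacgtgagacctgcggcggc
Crb3, chr17:57061951-57062250, plus strand: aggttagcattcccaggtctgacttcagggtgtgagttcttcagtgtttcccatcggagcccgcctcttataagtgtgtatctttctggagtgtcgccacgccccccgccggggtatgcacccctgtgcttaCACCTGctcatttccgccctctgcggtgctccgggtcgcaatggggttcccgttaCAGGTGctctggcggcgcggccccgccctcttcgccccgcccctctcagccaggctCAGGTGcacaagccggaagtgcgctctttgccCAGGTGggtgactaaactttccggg
Cldn3, chr5:134985964-134986263, plus strand: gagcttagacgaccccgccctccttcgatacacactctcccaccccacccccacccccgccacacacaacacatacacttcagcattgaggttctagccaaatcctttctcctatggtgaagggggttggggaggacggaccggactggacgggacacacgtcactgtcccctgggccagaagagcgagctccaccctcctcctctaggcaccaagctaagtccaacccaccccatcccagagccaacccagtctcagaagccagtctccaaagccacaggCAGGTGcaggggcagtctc
Cldn4, chr5:134946885-134947184, minus strand: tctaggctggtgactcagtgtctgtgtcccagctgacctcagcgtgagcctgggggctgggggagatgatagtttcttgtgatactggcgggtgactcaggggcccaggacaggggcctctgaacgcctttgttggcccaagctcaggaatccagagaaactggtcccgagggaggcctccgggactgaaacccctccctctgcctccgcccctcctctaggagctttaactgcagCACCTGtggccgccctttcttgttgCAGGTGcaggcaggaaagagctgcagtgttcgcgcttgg

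Counted from the start site, the first base of the E-box lay at −187 and −19 in the Epcam window. In the Crb3 window it lay at −118, −63, −7 and 26. The Cldn3 window held it at 32, and the Cldn4 window at −14 and 12. Searched on both strands, CACCTG occurred in 9 of the 10 windows and in 20.2% of all 32851 promoter windows of the table. The window without it was 1 of the 2 for Cldn7, whose other window held it at −97 and −57. Dsp held it at 4, and the Ocln windows held it at −213 and −68 and, counted from the other start, at 8. The 2 windows of Crb3 overlap, as do those of Ocln, so the 10 windows are not independent. The windows had a GC content of 52% to 73%, against a median of 52.7% over all windows. The grainyhead-like motif AACNNGTT occurred in 0 of the 10 windows and in 4.20% of all, and the ETS core AGGAAG in 2 of the 10 (both of Cldn7) and in 35.4% of all. These matches describe letters in these windows and say nothing of binding.

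As to the tissue label, the luminal keratins Krt8 and Krt18 and the mammary epithelial factor Elf5 were above the whole-mouse level in 20 of 20 tumours. Of the other luminal markers, Gata3 was above it in 18 tumours, Krt19 in 17 and Krt7 in 14. The 6 basal markers were above it in fewer, from 1 tumour (Krt5) to 8 (Acta2). The arrays differed by slide. On slides 5 and 6, with 7 tumours, the SD of the ratios within an array was 0.825 to 0.903, against 1.195 to 1.432 on the other arrays. No ATX tumour (0 of 5) lay on slides 5 and 6, against 1 of 5 LPA3, 3 of 5 LPA2 and 3 of 5 LPA1 tumours. Values are therefore also given within slides 5 and 6 and within slides 1 to 4, which held 13 tumours. LPA1 mouse 4 was hybridised on 2 arrays, which are called the repeat (slide 4) and the first (slide 7) here. These were averaged, except that the repeat alone stands for this tumour wherever slide sets are compared, centred or taken apart. The 2 arrays correlated at 0.640 over features, and all 9 genes were lower on the repeat, by 0.39 (Cldn3) to 1.22 (Cldn7) in 8 of them. Cldn4 was 2.08 lower, but its value on the first array was exactly 0, which may not be a measured ratio, and its average of −1.04 in this tumour rests on that 0. Depth has no counterpart on arrays, and their number limits the precision.

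Cdh1 lay below the whole-mouse level in 17 of 20 tumours, with a mean of −0.81 ± 0.915 (SD, n = 20). Its ratios were −1.08, −0.88, −1.26, −1.29 and −0.39 in ATX tumours 1 to 5. They were −0.90, −0.74, −1.24, −0.61 and −3.00 in LPA3 tumours, 0.23, −0.09, −0.09, −0.98 and 0.23 in LPA2 tumours, and −0.07, −0.05, −1.39, −2.91 and 0.22 in LPA1 tumours. LPA3 5 and LPA1 4 were far lower than all others, and every genotype overlapped with every other. The 10 Cdh1 features correlated at 0.944 to 0.993 across the 21 arrays, so this pattern does not rest on 1 probe. The low value of LPA1 4 was seen on both of its arrays, at −3.22 on the repeat and −2.59 on the first.

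Crb3, the polarity gene, varied widely within genotypes. Its ratios were 1.44, 0.71, −0.07, 0.31 and 1.58 in ATX tumours. In LPA3 tumours they were −0.90, 2.03, −2.03, −2.00 and −1.15, in LPA2 tumours 1.53, 0.98, 2.20, −1.60 and 0.57, and in LPA1 tumours 0.09, 0.85, 1.93, −1.02 and 0.62. In the LPA3 group 4 of 5 tumours were below the whole-mouse level, against 1 of 5 in each other genotype, yet LPA3 2 was among the highest of all 20. The SD within genotypes was 1.28, and 94.3% of all genes had a smaller one.

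Epcam was above the whole-mouse level in 18 of 20 tumours, with means of 1.70 ± 0.624 in ATX, 1.00 ± 0.903 in LPA3, 1.32 ± 0.566 in LPA2 and 1.02 ± 0.701 in LPA1 tumours (SD, n = 5 each). The ATX tumours had 1.22, 1.95, 2.37, 2.07 and 0.88. The LPA3 tumours had 1.72, 1.62, 1.58, −0.28 and 0.38, the LPA2 tumours 1.15, 0.65, 1.89, 1.93 and 1.00, and the LPA1 tumours 0.91, 1.13, 1.86, −0.07 and 1.27. The groups overlapped, and the tumours below the whole-mouse level were LPA3 4 and LPA1 4.

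Among the claudins, Cldn3 was above the whole-mouse level in 18 of 20 tumours, Cldn4 in 19 and Cldn7 in 17. Cldn3 was at 2.04, 2.14, 1.79, 1.86 and 1.66 in ATX tumours, against 1.54, 2.80, 1.40, −0.23 and −0.34 in LPA3, 1.97, 1.82, 2.16, 1.40 and 1.34 in LPA2 and 1.12, 1.72, 2.32, 0.35 and 1.66 in LPA1 tumours. The ATX tumours lay close together (SD 0.193), while the LPA3 tumours held both the highest and the lowest of the 20 (SD 1.32). Cldn4 had 0.56, 2.52, 4.18, 2.08 and 3.63 in ATX tumours. It had 3.00, 4.30, 2.74, 0.12 and 1.23 in LPA3, 0.14, 0.69, 1.39, 3.28 and 1.98 in LPA2 and 0.08, 0.07, 1.11, −1.04 and 2.69 in LPA1 tumours. Each genotype spanned more than 3 log2 units for Cldn4, and its SD within genotypes of 1.42 exceeded that of 96.5% of all genes. Cldn7 ranged from 0.34 to 1.48 in ATX, −0.61 to 1.85 in LPA3, 0.71 to 1.08 in LPA2 and −0.72 to 1.21 in LPA1 tumours.

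Of the desmosome genes, Pkp3 was above the whole-mouse level in 17 of 20 tumours and Dsp in 6. Pkp3 had 0.56, 0.85, 0.93, 0.40 and 2.24 in ATX tumours, 1.09, 0.92, 0.70, −0.27 and 0.17 in LPA3, 1.25, 1.13, 0.77, 0.99 and 1.04 in LPA2 and 0.02, 0.81, −0.20, −0.49 and 0.44 in LPA1 tumours. Only LPA1 2 among the LPA1 tumours reached the range of the LPA2 tumours. Dsp ranged from −2.06 to 1.61 in ATX, −1.70 to −0.46 in LPA3, −1.08 to 1.26 in LPA2 and −2.35 to −0.05 in LPA1 tumours. Its 2 features correlated at 0.970. All LPA3 and all LPA1 tumours were below the whole-mouse level for Dsp, against 1 of 5 ATX and 3 of 5 LPA2 tumours.

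Ocln had a mean of −0.05 ± 0.695 (SD, n = 20) and ranged from −2.06 (ATX 5) to 1.33 (LPA3 2). Its 2 features disagreed, with a correlation of 0.189 across arrays. One lay within 0.05 of 0 on 8 of 21 arrays, was exactly 0 on 4 of them, and was −2.70 in ATX 1 and −3.58 in ATX 5. The other had 0.92 and −0.54 in those tumours. Ocln values average both features and are given with that limit.

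**Figure D1:**
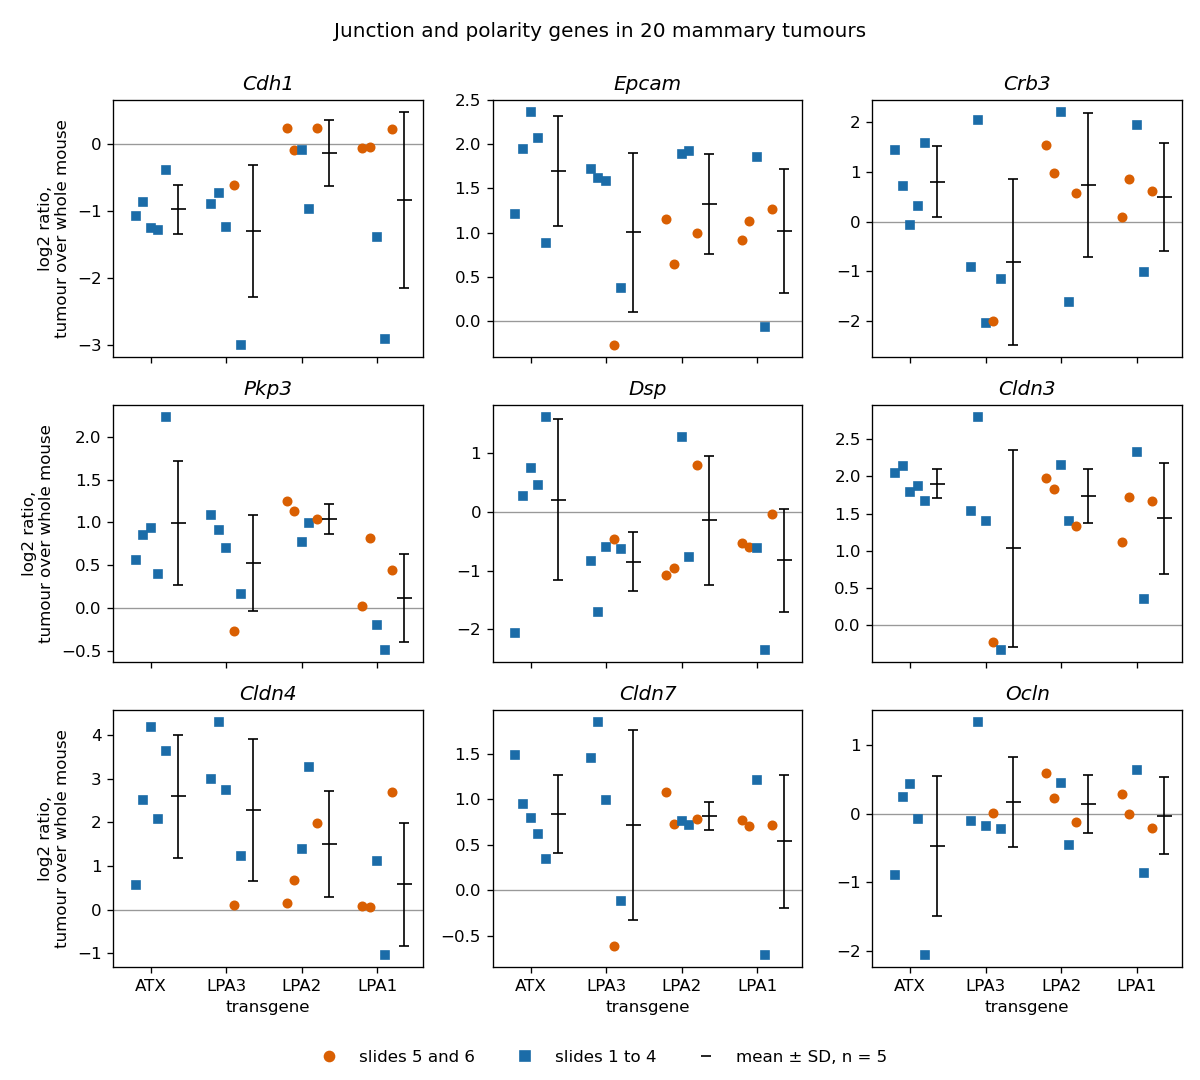
Log2 ratio of tumour to whole mouse for each of the 9 genes (vertical axes) by transgene (horizontal axes), with 1 point per tumour, circles for slides 5 and 6, squares for slides 1 to 4, and the mean ± SD of 5 tumours. The genotypes overlap for all 9 genes, and LPA3 5 and LPA1 4 stand below the rest for Cdh1, at −3.00 and −2.91.

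The question of the design is whether the 4 transgenes give tumours that differ in these genes. In the F test over the 4 genotypes 0 of 9 genes passed a Benjamini-Hochberg adjusted p of 0.05 over all 19069 genes tested with limma, where 0.0315% of all genes passed. Pkp3 had the smallest p of the 9 (unadjusted 0.0383, adjusted 0.453 in limma), and it was the single one with an unadjusted p under 0.05. Of all 19069 genes 2077, 10.9%, had an unadjusted p under 0.05 in this test. Pkp3 averaged 0.997 ± 0.725 in ATX, 0.521 ± 0.562 in LPA3, 1.04 ± 0.178 in LPA2 and 0.116 ± 0.519 in LPA1 tumours (SD, n = 5 each). The order from high to low was LPA2, ATX, LPA3 and LPA1, with overlap between neighbours. The range of the genotype means was 0.30 (Cldn7) to 2.01 (Cldn4), while the range over the 20 tumours was 2.57 (Cldn7) to 5.34 (Cldn4).

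ATX tumours were set against the mean of the 3 receptor genotypes. Of the 9 genes 0 passed in limma, where 0.0996% of all genes passed. An unadjusted p under 0.05 was found for 0 of the 9 and for 12.7% of all genes. The differences were above 0 for 7 genes, with a median of 0.50 over the 9 and −0.04 over all genes tested. The largest was that of Cldn4, at 1.14 (SE 0.680, 95% interval −0.28 to 2.56, adjusted p = 0.500 in limma). Dsp differed by 0.81 (−0.21 to 1.83), Crb3 by 0.65 (−0.63 to 1.93), Epcam by 0.58 (−0.15 to 1.31), Cldn3 by 0.50 (−0.31 to 1.30), Pkp3 by 0.44 (−0.13 to 1.01) and Cldn7 by 0.15 (−0.55 to 0.85). Cdh1 (−0.22, −1.11 to 0.67) and Ocln (−0.57, −1.29 to 0.16) had differences below 0. All 9 intervals include 0, and they do not show that the genotypes are alike.

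Since no ATX tumour lay on slides 5 and 6, the slide set was added as a covariate. The Cdh1 difference then became 0.42 (95% interval −0.41 to 1.26), and on slides 1 to 4 alone it was 0.46, so its sign depends on the slides. The Cldn4 difference was 0.90 with the covariate and 1.04 on slides 1 to 4 alone, and that of Epcam 0.31 and 0.37. With each slide as a block, Crb3 had −0.17 and Cldn3 0.08. With arrays scaled to the same spread, 5 of 9 differences were above 0 and their median was 0.13. The 2 Ocln features gave −1.48 (unadjusted p = 0.003, adjusted p = 0.195 in limma) and 0.35.

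**Figure D2:**
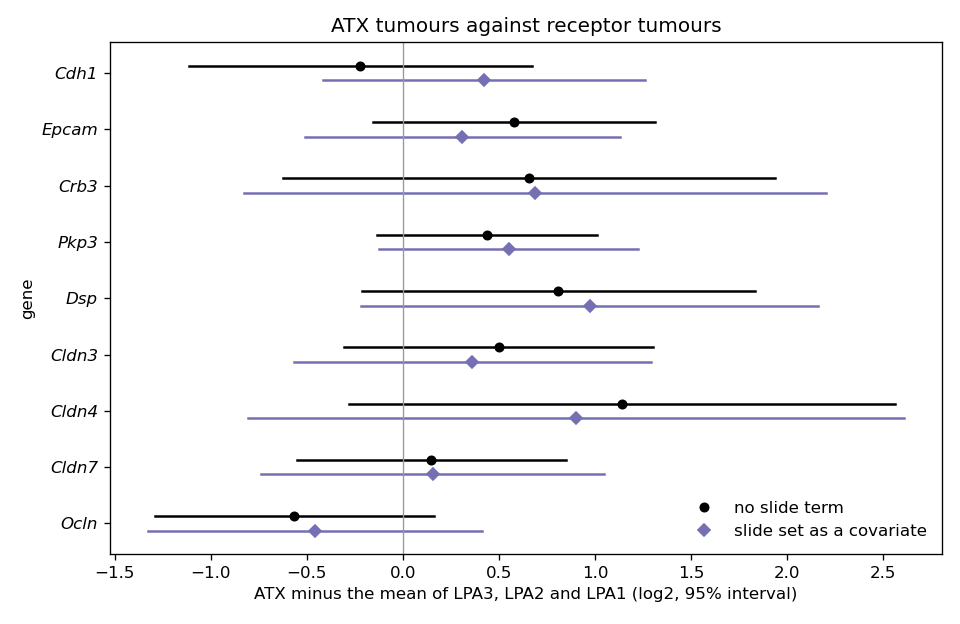
Difference of ATX tumours minus the mean of LPA3, LPA2 and LPA1 tumours on the log2 scale (horizontal axis) for each of the 9 genes (vertical axis), with 95% intervals from limma, circles for the fit without a slide term and diamonds with the slide set as a covariate. Every interval includes 0, and the Cdh1 estimate is −0.22 without and 0.42 with the covariate.

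Between the receptor genotypes 0 of 9 genes passed in any of the 3 comparisons in limma. For LPA3 minus LPA2, 0% of all genes passed, and 1778 genes, 1 of the 9 among them, had an unadjusted p under 0.05. This was Cdh1, at −1.16 (95% interval −2.25 to −0.07, adjusted p = 0.523 in limma). Without LPA3 5 it was −0.73. Crb3 had −1.55 (−3.11 to 0.02), Cldn3 −0.70 and Dsp −0.70, and 2 of 9 differences were above 0, with a median of −0.52 against −0.06 over all genes. On slides 5 and 6, where LPA3 4 is the single LPA3 tumour and was given the spread of the other genotypes, all 9 differences were below 0. On slides 1 to 4, 3 of 9 were above 0.

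For LPA3 minus LPA1, 0.00524% of all genes passed. None of the 9 had an unadjusted p under 0.05, where 9.20% of all genes did. Cldn4 had the largest difference, at 1.70 (95% interval −0.05 to 3.44), and Crb3 had −1.30 (−2.87 to 0.26). The estimates of 8 of the 9 genes, all but Crb3, differed in sign between the slide sets. These estimates rest on few tumours. LPA3 4 was the single LPA3 tumour on slides 5 and 6. The LPA1 tumours on slides 1 to 4 were LPA1 3 and LPA1 4, the latter by its repeat array, with Cdh1 at −1.39 and −3.22. On slides 5 and 6, Cldn3 had −1.73, Epcam −1.38, Cldn7 −1.34, Cldn4 −0.83, Pkp3 −0.70, Cdh1 −0.64 and Crb3 −2.51. On slides 1 to 4, they were 0.11, 0.59, 1.10, 3.30, 1.22, 0.84 and −0.75 in the same order of genes.

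For LPA2 minus LPA1, 0% of all genes passed, and 697 had an unadjusted p under 0.05. Among the 9 genes this held for Pkp3, at 0.92 (SE 0.334, 95% interval 0.22 to 1.62, unadjusted p = 0.0124, adjusted p = 0.999 in limma). The Pkp3 difference was 0.72 on slides 5 and 6 and 1.39 on slides 1 to 4. All 9 differences were above 0, with a median of 0.30 against 0.01 over all genes. Without LPA1 4 this was 6 of 9, with a median of 0.03. The comparisons between genotypes share tumours, so their values for a gene are not independent of each other.

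Between the slide sets, with the genotype in the fit, Cdh1 passed the test and was higher on slides 5 and 6. The difference was 1.34 (SE 0.386, 95% interval 0.53 to 2.15, adjusted p = 0.0359 in limma). Cdh1 was 1 of 9 genes that passed, where 8.72% of all genes passed. Cdh1 ranged from −0.61 to 0.23 in the 7 tumours on slides 5 and 6, against −3.22 to −0.09 in the 13 on slides 1 to 4. The call was lost without LPA1 1, 2, 3, 4 or 5, LPA2 4 or LPA3 4, with adjusted p from 0.0531 to 0.105 in limma. The difference was 0.93 without LPA1 4 and at least 1.24 without each of the other 6. Without LPA1 4, Epcam passed instead, at −1.10 (adjusted p = 0.0249 in limma). The Cdh1 difference was 0.96 (adjusted p = 0.134 in limma) once arrays were scaled to the same spread. Markers of other tissues and cell types moved with the slide set too. The median of 5 adipocyte genes averaged 0.19 ± 0.847 on slides 5 and 6 (SD, n = 7, range −1.02 to 1.07), against −3.26 ± 1.53 on slides 1 to 4 (SD, n = 13, range −4.64 to 0.78), and 4 of the 5 were higher in limma. That of 5 muscle genes ranged from −0.97 to 0.53 against −4.68 to −2.00, and all 5 were higher. All 5 liver genes, which stand for tissue of the whole-mouse reference, were higher as well, by 1.78 (Ttr) to 5.40 (Fabp1). Of 6 luminal markers 2 were lower on slides 5 and 6, Krt8 by 1.39 (adjusted p = 0.0011 in limma) and Krt18 by 1.84 (adjusted p = 1.33e-05 in limma). Of 6 basal markers 2 were higher, Krt17 (2.27) and Krt5 (2.04), as were 2 of 6 fibroblast genes, Lum (2.18) and Col1a1 (1.95), and 1 of 5 endothelial genes, Kdr (0.68). The part of these shifts and of the narrower ratios in the Cdh1 difference was not tested.

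Single tumours stood apart from the rest of their genotype. In LPA1 4, taken here from its repeat array for the slide set, all 9 genes were below the median of their slide set, 8 of them among the 2 lowest, and 1 of 9 was above the whole-mouse level. In LPA3 5 all 9 were below that median and 3 above the whole-mouse level. In LPA3 4, on slides 5 and 6, 7 were below the median of their slide set, 6 among the 2 lowest, and 2 above the whole-mouse level. The mean over the 9 genes after subtracting the mean of the slide set, called the junction score here, was −2.00 in LPA1 4, −0.97 in LPA3 5 and −0.96 in LPA3 4. It was between −0.19 (ATX 1) and 0.82 (LPA3 2) in the other 17 tumours. LPA3 2 and LPA2 3 had the highest scores, 0.82 and 0.64, so the LPA3 group held both the highest score and 2 of the 3 lowest.

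**Figure D3:**
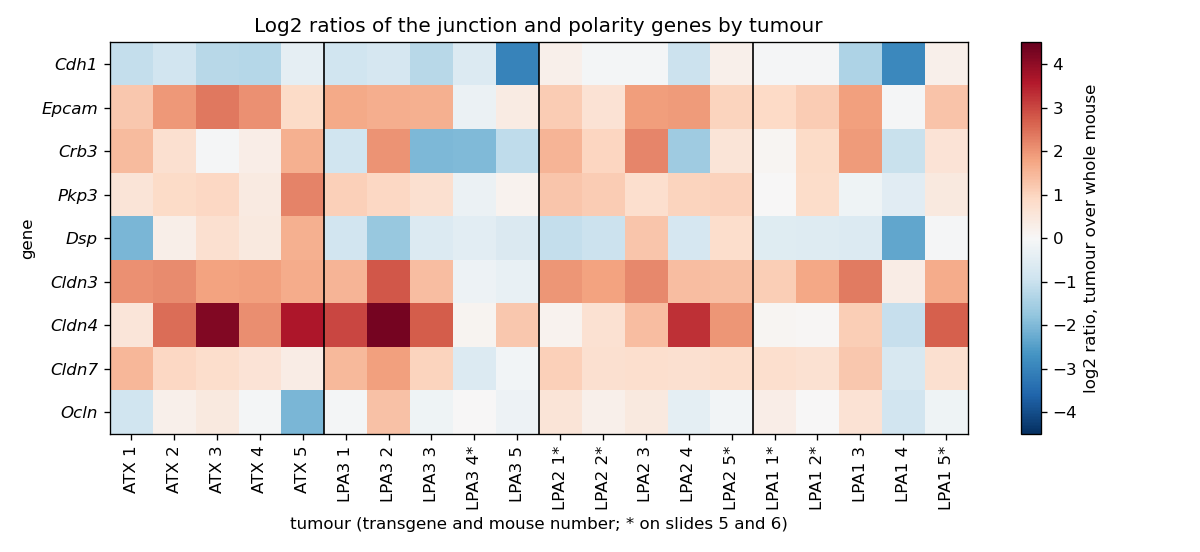
Heat map of the log2 ratio (tumour over whole mouse, colour scale) of the 9 genes (rows) in the 20 tumours (columns, grouped by transgene, with an asterisk for slides 5 and 6). The columns LPA3 4, LPA3 5 and LPA1 4 are pale or blue in nearly every row, with 2, 3 and 1 of 9 genes above the whole-mouse level.

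The luminal markers did not follow one pattern in these 3 tumours. Krt8 was 3.17 in LPA1 4, the highest of the 20, and 2.46 in LPA3 5, and Krt18 was 3.02 and 2.46. Krt7 was lowest of the 20 in LPA1 4, at −1.45, and was 1.10 in LPA3 5, and Krt19 was among the 4 lowest in both, at 0.72 in LPA1 4 and −0.28 in LPA3 5. In LPA3 4, Krt8 and Krt18 were the lowest of the 20, at 0.27 and 0.44, but this tumour lay on slides 5 and 6, where both keratins were lower. Of 6 mesenchymal markers, 3 were highest in LPA1 4 and next highest in LPA3 5. These were Vim, an intermediate filament of mesenchymal cells (1.29 and 0.57), Fn1, fibronectin (1.84 and 1.09), and S100a4, a calcium-binding protein made by fibroblasts and myeloid cells (3.57 and 3.26). The other 3 differed between these tumours. Sparc was 0.76 in LPA1 4, the highest, but −1.62 in LPA3 5, and Cdh11 was −0.02 and −1.95. Cdh2 was −0.81 in LPA1 4 and −0.05 in LPA3 5, the highest of the 20.

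The median of 6 mesenchymal markers was above 0 in these 3 tumours alone, at 1.02 in LPA1 4, 0.26 in LPA3 5 and 0.19 in LPA3 4. Markers of other cell types also moved. The median of the macrophage genes C1qa, C1qb and Adgre1 was 2.75 in LPA1 4 and 2.05 in LPA3 5, the highest of the 20, and 1.16 in LPA3 4. By genotype it ranged from 0.09 to 0.80 in ATX, 0.72 to 2.05 in LPA3, 0.14 to 1.56 in LPA2 and 0.19 to 2.75 in LPA1 tumours. C1qa was above the whole-mouse level in 20 of 20 tumours. The median of 6 fibroblast genes was −0.60 in LPA1 4, −1.97 in LPA3 5 and −0.39 in LPA3 4, and it ranged from −3.30 to −0.39 over all tumours. The part of macrophages and fibroblasts in the low junction ratios was not tested.

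**Figure D4:**
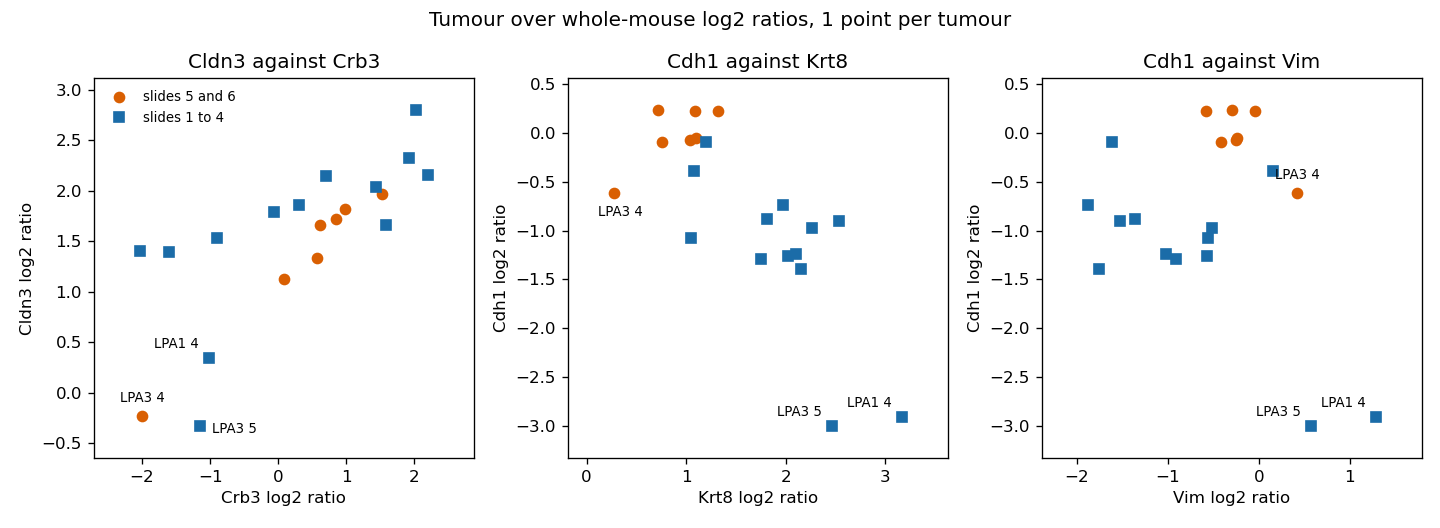
Log2 ratios of tumour to whole mouse with 1 point per tumour, for Cldn3 against Crb3 (left), Cdh1 against the luminal keratin gene Krt8 (centre) and Cdh1 against the mesenchymal marker Vim (right), with circles for slides 5 and 6 and squares for slides 1 to 4. LPA1 4 and LPA3 5 are low in Cdh1 (−2.91 and −3.00) with Krt8 at 3.17 and 2.46 and Vim at 1.29 and 0.57.

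Across tumours the 9 genes gave 36 pairs, tested by permutation of Pearson's r and Spearman's rho (two-sided, Benjamini-Hochberg over the 36 pairs). Over all 20 tumours 33 of the 36 r were above 0, with a median of 0.38, and 5 pairs had an adjusted p under 0.05 by r and 1 by rho. Within slides 5 and 6 (n = 7, exact permutation test) the median was 0.36, with 2 pairs under 0.05. Within slides 1 to 4 (n = 13) it was 0.49, with 8 pairs. The counts within the slide sets are by r, and by rho they were 1 on slides 5 and 6 and 4 on slides 1 to 4. Without the 2 tumours farthest from the median of a pair's first gene, the medians were lower. They were then 0.22 over all tumours, 0.22 on slides 5 and 6 and 0.18 on slides 1 to 4, with 28, 25 and 26 of 36 r above 0. For comparison, the median r of each of the 9 genes with all other genes lay between −0.01 (Cldn4) and 0.05 (Cdh1), after each gene was centred on its slide set.

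Crb3 and Cldn3 were the pair that passed in all 3 sets of tumours. Over the 20 tumours r was 0.75 and rho 0.81 (adjusted p = 0.0011 and 0.0018, permutation test). On slides 5 and 6 r was 0.99 and rho 1 (adjusted p = 0.0071 and 0.0143, exact permutation test, n = 7). On slides 1 to 4 r was 0.72 and rho 0.87 (adjusted p = 0.0269 and 0.0090, permutation test). Without the 2 tumours farthest from the median of Crb3, r was 0.75, 0.94 and 0.82 in these sets. The relation therefore did not rest on those tumours.

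Cldn3 and Cldn7 had r of 0.84 over 20 tumours (adjusted p = 0.0011, permutation test) and 0.76 without the 2 farthest, with rho of 0.61 (adjusted p = 0.0670). Epcam correlated with Cldn3 (r = 0.74, 0.54 without the 2 farthest), Cldn7 (0.70 and 0.39) and Cldn4 (0.64 and 0.50), with adjusted p by r of 0.0037, 0.0048 and 0.0164 and by rho of 0.0670, 0.178 and 0.0670 (permutation test). On slides 1 to 4, Cdh1 and Cldn3 had r of 0.83 (adjusted p = 0.0314, permutation test), which was 0.16 without the 2 tumours farthest in Cdh1, and Cdh1 and Cldn7 0.71 and −0.18. Epcam and Cldn3 had 0.73 and 0.04 there, and Epcam and Cldn7 0.73 and −0.07. These relations rest on those tumours. Pkp3 on slides 1 to 4 held with Cldn4 (0.79 and 0.69, adjusted p = 0.0269 by r, permutation test) and with Cdh1 (0.75 and 0.60, adjusted p = 0.0304). Neither of these Pkp3 pairs was among the 5 that passed by r over all 20 tumours. Dsp and Ocln had the lowest r with the mean of the 9 genes over 20 tumours, 0.55 and 0.43, and on slides 5 and 6 their r with each other was −0.75.

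**Figure D5:**
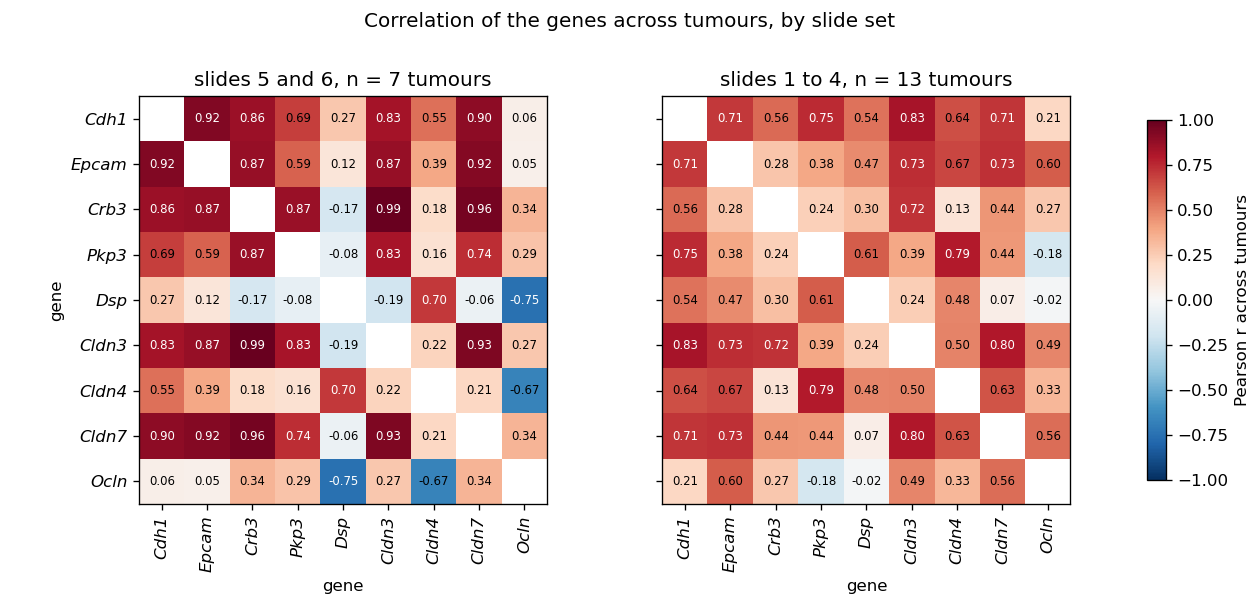
Pearson's r across tumours for each pair of the 9 genes (rows and columns), for slides 5 and 6 on the left (n = 7) and slides 1 to 4 on the right (n = 13). Crb3 with Cldn3 has 0.99 and 0.72, and the rows of Dsp and Ocln are the palest or bluest on the left.

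The genes whose pattern was most like the junction score over the 20 tumours, each centred on its slide set, were Grb7 (r = 0.92), Lsr (0.89), Tmem184a (0.89), Mpzl2 (0.87), Spint1 (0.86), Macc1 (0.85), Krtcap3 (0.83), Ptprf (0.83), Rab15 (0.83) and Kdf1 (0.82). Lsr encodes a protein of tricellular tight junctions, and Spint1 an inhibitor of membrane serine proteases. These r describe the tumours and carry no p, since the genes were picked from 18926. Without the 2 tumours farthest in score, LPA1 4 and LPA3 5, they ranged from 0.47 (Rab15) to 0.84 (Lsr). The lowest were Fes (−0.86), a tyrosine kinase expressed in myeloid cells, 4930598N05Rik (−0.85), 4930471M09Rik (−0.84), Arsj (−0.84) and Hfe (−0.83). Over all genes outside the 9 the median r with the score was 0.03, and 10292 of 18926 were above 0.

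Gene by gene, the 3 nearest patterns were Ptprf (0.91), Rab15 (0.91) and Spint1 (0.86) for Cdh1, and Macc1 (0.87), Ifnlr1 (0.85) and Srsf10 (0.85) for Epcam. For Crb3 they were Grhl1, a grainyhead-like transcription factor of epithelia (0.92), Upb1 (0.90) and Eaf2 (0.90). For Cldn3 they were Lsr (0.95), Kdf1 (0.94) and Cmtm8 (0.93), and for Cldn7 Krtcap3 (0.92), Chka (0.88) and Esrp2, an epithelial splicing regulator (0.88). Cldn4 was nearest to Eps8l1 (0.87), Tmem40 (0.81) and Tmem54 (0.79), and Pkp3 to Urah (0.93), Fam83h (0.86) and 2810459M11Rik (0.80). Dsp was nearest to Ccdc68 (0.84), Fam3b (0.83) and Perp, a desmosome protein (0.82), and Ocln to Zfp442 (0.83), Defb7 (0.82) and Ppm1h (0.80). No gene was shared by the nearest 3 of any 2 of the 9 genes.

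Among regulators, 10 of 11 transcription and splicing factors of the epithelial state had an r with the junction score above 0, with a median of 0.51. The highest were Esrp1 (0.80), Elf3 (0.77) and Esrp2 (0.74), and the lowest were Klf5 (0.17) and Klf4 (−0.06). Of 6 repressors 1 was above 0, with a median of −0.58. Zeb1 had −0.79, Zeb2 −0.68, Twist1 −0.65, Snai1 −0.50 and Twist2 −0.38, while Snai2 had 0.09. All 6 mesenchymal markers were below 0 (median −0.60), with Vim at −0.80 and Fn1 at −0.73 lowest. So were all 3 macrophage (median −0.71) and all 6 fibroblast genes (−0.53). Of 6 luminal markers 4 were above 0 (median 0.19), from Krt8 at −0.45 to Krt7 at 0.49, with Krt18 at −0.08. Krt8 had −0.65 on slides 1 to 4 and 0.73 on slides 5 and 6. All 6 basal markers were above 0 (median 0.27). The medians were closer to 0 without LPA1 4 and LPA3 5. Without both tumours the median was 0.38 for the activators, −0.45 for the repressors, −0.30 for the mesenchymal, −0.37 for the macrophage and −0.24 for the fibroblast genes. Zeb1 then had −0.49, Vim −0.45, C1qa −0.54 and Esrp1 0.71, while S100a4 had −0.08, Adgre1 −0.06 and Pdgfra −0.07, and Dcn (0.23) and Twist2 (0.03) turned above 0. The 3 tumours of lowest score also had the 3 lowest medians of the activators, −0.20 in LPA1 4, −0.10 in LPA3 5 and −0.06 in LPA3 4.

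Of the other polarity genes 12 of 14 were above 0 (median 0.41), led by Llgl2 (0.74), Patj (0.73) and Prkcz (0.69), with Pard6a at −0.01 and Llgl1 at −0.38 lowest. All 4 genes of the surface protease axis were above 0 (median 0.73), with Spint1, St14 (0.73), Prss8 (0.72) and Spint2 (0.62). Of the other desmosome genes 9 of 11 were above 0 (median 0.32), with Dsg2 (0.75), Dsc2 (0.64) and Pkp4 (0.59) highest and Ppl (−0.03) and Pkp1 (−0.01) lowest. Of the other tight junction genes 17 of 21 were above 0 (median 0.26), with Cldn23 (0.80), Marveld2 (0.60) and Marveld3 (0.58) highest. Tjp1 (−0.17), a scaffold also present outside epithelia, and Jam2 (−0.31), an endothelial junction protein, were lowest. Of the other adherens junction genes 6 of 10 were above 0 (median 0.06), near the share over all genes. Afdn (0.61), Nectin4 (0.39) and Nectin2 (0.36) were highest and Nectin3 (−0.62) and Vcl (−0.67) lowest. Without LPA1 4 and LPA3 5 the medians of these lists were 0.25 for polarity, 0.54 for protease and 0.29 for desmosome genes. They were 0.17 for tight junction and 0.05 for adherens junction genes.

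In the genotype comparisons 0 genes of these lists passed in limma. For ATX minus the receptors, 3 of 21 other tight junction genes, 3 of 10 adherens, 1 of 11 desmosome, 1 of 14 polarity, 0 of 4 surface protease, 1 of 11 activator, 1 of 6 repressor and 1 of 6 mesenchymal genes had an unadjusted p under 0.05, where 2416 of the 19069 genes, 12.7%, did. The lists' median differences were 0.17, 0.07, 0.20, 0.14, 0.40, 0.14, −0.18 and −0.01 in the same order, against −0.04 over all genes. The tight junction genes of largest difference were Cldn6 (1.55), Cldn2 (−1.34) and Cldn8 (1.28). Among the others these were Nectin3 (−1.08), Nectin1 (0.80) and Cdh3 (0.75), Dsc2 (1.04), Perp (0.99) and Dsg2 (0.66), and Patj (0.65), Pard6b (0.40) and Prkcz (0.34). Spint2 (0.77), St14 (0.51) and Spint1 (0.28) led the protease list, and Grhl1 (1.04), Esrp1 (0.70) and Ehf (0.67) the activators. Fn1 (−1.40), Cdh11 (−0.58) and Vim (−0.13) led the mesenchymal list. Outside these lists, the 6 basal markers were all above 0 (median 1.06), and 4 of them had an unadjusted p under 0.05, with Cnn1 at 2.48 and Krt5 at 1.36. The 5 liver genes were all below 0 (median −1.61), 4 with an unadjusted p under 0.05. The 6 luminal markers had a median of 0.39, with 1 under 0.05, Gata3 (1.84). Of these basal, liver and luminal markers 0 passed in limma. Of 5 muscle genes 0 were above 0 (median −1.33), and of 5 adipocyte genes 1 was (median −0.65), with 0 under 0.05 in both lists. These differences come from the fit without a slide term, and no ATX tumour lay on slides 5 and 6. On those slides Cldn2 was 2.49 higher, and Cldn6 and Cldn8 were 0.26 and 1.21 lower. The 5 liver genes were 1.78 (Ttr) to 5.40 (Fabp1) higher there. Basal Krt5 and Cnn1 were also higher there, by 2.04 and 1.31. The part of the slide sets in these ATX differences was not tested.

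Snai2, the repressor Slug, had the largest difference of the repressors, at 2.04 (SE 0.490, adjusted p = 0.125 in limma), before Twist2 (−0.46) and Zeb1 (−0.34). Snai2 was −0.09, 1.35, 0.44, 1.40 and 0.78 in ATX tumours, against −3.14 to −0.07 in LPA3, −2.01 to −0.03 in LPA2 and −3.09 to 0.17 in LPA1 tumours. Of the 5 ATX tumours 4 were above all 15 receptor tumours. Snai2 is named for its large difference, and the share of all genes that separate as far is not given here. Between the slide sets Snai2 was higher on slides 5 and 6 by 1.52 (adjusted p = 0.0236 in limma), as were Cldn2 (2.49), Cldn5 (1.77), Cldn15 (1.63) and Cldn11 (1.23), while Marveld3 (−1.19) and Ehf (−1.50) were lower.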

How the data were processed

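Values are the authors' processed log2 ratios, deposited as 1 value per feature and array (21 arrays, 45220 features). The scanner processing, normalization and log base are not given in the sources used here. Values spanned −11.437 to 9.86, from which base 2 was assumed, and every array had a median of 0. The direction, tumour over whole mouse, follows from the dyes per the labels. Features were named from GEO's platform annotation (33653 with 1 symbol, 56 with several, 11511 with none). Features of a gene were averaged, and genes with values in 4 or more tumours of each genotype were tested (19069 of 19087). Probes could not be filtered on brightness, since only ratios are held in the table. A ratio of exactly 0 was kept.

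Groups come from the tumour channel's labels and the slide from the array titles. Per the labels each tumour came from its own mouse, so the spread within a group is that between mice and slides. The tests used limma 3.58.1 under R 4.3.3 (lmFit, then eBayes) on the 20 tumours together, which left 16 residual degrees of freedom, with p-values adjusted over all genes by Benjamini-Hochberg. Intervals are 95% intervals of limma. The comparison of slide sets had the genotype in the fit, used the repeat array for LPA1 mouse 4 and left out no tumour. The fits were tested on simulated data. Pairs were tested in Python 3.11.15 (numpy 2.4.6, scipy 1.17.1, pandas 2.3.3) with 100000 permutations, or all 5040 orderings for 7 tumours. Figures used matplotlib 3.10.9.

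The 9 genes, the gene lists and the tests were chosen with earlier results of these data known. Every one of the 9 is named with each feature. Of the junction, polarity, protease, regulator and mesenchymal lists, called genes, the 3 of largest ATX difference, and the 3 highest and 2 lowest in r with the junction score are named, and markers of cell types and tissues, like other genes besides, were singled out after their values were seen. For likeness, the 10 highest and 5 lowest r and the 3 nearest genes are named. Some genes of the lists are not reported here.

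Alternatives were the slide as covariate, fixed or random block, each slide set alone, scaled or quantile-normalized arrays, zeros as missing, the median over probes, single probes, either array of LPA1 mouse 4, array weights, a trended robust fit, no minimum of values, the mouse number as a block and each tumour left out.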

Additional observations from a re-analysis of the deposited data

Results flagged for a closer look

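Values that stood apart within a genotype of 5 tumours were looked for in 36 groups (9 genes in 4 genotypes), and 8 were found. In a single group chance flags about 1 in 20. The 9 genes share the same tumours and vary together, so the 36 groups are not independent. Whether 8 is more than chance gives cannot be judged from that rate. A value was taken when its gap to the nearest other tumour, as a share of the group's range, exceeded Dixon's 95% critical value for 5 samples.

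Below their group were Cdh1 in LPA3 5, at −3.00 with the others between −1.24 and −0.61, and Cdh1 in LPA2 4, at −0.98 with the others between −0.09 and 0.23. Dsp in LPA1 4 was at −2.35 with the others between −0.61 and −0.05, and Cldn7 in LPA1 4 at −0.72 with the others between 0.70 and 1.21.

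Above their group were Crb3 in LPA3 2, at 2.03 with the others between −2.03 and −0.90, and Ocln in LPA3 2, at 1.33 with the others between −0.22 and 0.01. Pkp3 in ATX 5 was at 2.24 with the others between 0.40 and 0.93, and Cldn7 in LPA2 1 at 1.08 with the others between 0.71 and 0.78.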

How the results depend on the processing

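In the genotype comparisons 0 of the 9 genes passed in limma under all alternatives run, with the mouse number as a replicate block and with each tumour left out included, except array weights. With array weights 1 gene passed in the F test and 1 in LPA3 minus LPA2, Crb3 in both (−2.07, adjusted p = 0.0387 in limma for LPA3 minus LPA2). With these weights 3351 of all 19069 genes passed in the F test and 1070 in LPA3 minus LPA2. Between the slide sets, where 1 gene passed, 0 passed with arrays scaled to the same spread, with quantile normalization and with the mouse number as a replicate block. Leaving out 1 tumour gave 0 to 1. With each probe fitted on its own, 8 of 20 features passed, all of Cdh1. The 10 Cdh1 features correlated at 0.944 to 0.993, so these calls are repeated readings of 1 gene. In the fit by gene 8.72% of all genes passed, and the share of all features in the fit by probe is not given here. Of the 36 pairs, 5 passed by r over 20 tumours, 19 with values centred on the slide set and 13 with scaled arrays. By rho, 1, 2 and 7 passed in the same order. With centred values the median r was 0.51, and 0.30 without the 2 tumours farthest from the median of a pair's first gene. The causes were not tested.

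No result changed sign while called. The count of all genes called moved more. For ATX minus the receptors it was 19, with 0 to 2525 over the alternatives and 0 to 116 without 1 tumour. In the F test it was 6, with 0 to 3351 and 0 to 37. For LPA3 minus LPA1 it was 1, with 0 to 828 and 0 to 11. For LPA3 minus LPA2 it was 0, with 0 to 1070 and 0 to 1, and for LPA2 minus LPA1 0, with 0 to 5 and 0. Array weights gave the highest counts except for LPA2 minus LPA1. Between the slide sets it was 1662, with 840 to 2782. Mouse numbers recur in all genotypes, but of 30 pairs of tumours with the same number 9 correlated above 0.1 (range −0.355 to 0.319), and 4 of 20 tumours correlated best with their own number, so the replicate block has no basis in pairing. A fit on slides 5 and 6 alone was not run where ATX enters, since they hold no ATX tumour. The number of arrays limits precision, and signal over background was not used here.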
